A study of Mus musculus with 12 samples.

Results

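Genes of the epidermal growth factor to ERK signalling route were followed in skeletal muscle with and without Phf2: the ligand Egf, the receptor Egfr, the kinases Map2k1 and Mapk3, the ribosomal S6 kinases Rps6ka1, Rps6ka2 and Rps6ka3, and the phosphatases Dusp6 and Dusp26. They were found by gene symbol and were 9 of the 34866 genes in each deposited table. The set was drawn up because Rps6ka2, Dusp26 and Egf differed between knockout and control in both muscles, so the knockout values of the 9 genes below are a description and carry no test. RNA was sequenced from whole gastrocnemius, a mixed and mostly fast calf muscle, and whole soleus, a slow postural muscle, of male C57BL/6 mice aged 4 weeks. Control (Ctrl) mice were Phf2 flox/flox;Acta1 Cre- and knockout (KO) mice were Phf2 flox/flox;Acta1 Cre+, so all mice shared the floxed alleles. There were 4 groups of 3 libraries, 12 in all. The Acta1 promoter drives Cre in skeletal muscle fibres, so the other cells in a whole muscle keep their Phf2. The series states its purpose as the study of PHF2, a histone demethylase of the Jumonji family, in skeletal muscle.

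In this route EGF or a related ligand binds a receptor of the ErbB family, which through adaptors and the small G protein Ras activates Raf. Raf phosphorylates the kinases MEK1 (Map2k1) and MEK2 (Map2k2), and these phosphorylate ERK kinases such as ERK1 (Mapk3). Active ERK phosphorylates transcription factors and the ribosomal S6 kinases, RSK1 (Rps6ka1), RSK2 (Rps6ka3), RSK3 (Rps6ka2) and RSK4 (Rps6ka6), which act on ribosomal proteins, translation factors and transcription factors. DUSP6 is a cytoplasmic phosphatase of ERK and is itself transcribed in response to ERK activity, and DUSP26 is an atypical dual-specificity phosphatase reported to act on MAP kinases and on p53 in human cells. In muscle the route takes part in myoblast growth and in the response of fibres to contraction. Transcript levels do not give the phosphorylation state of any of these proteins.

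Promoter sequence was available for 6 of the 9 genes in RefSeq (GRCm38.p6), not for Dusp26, Mapk3 or Rps6ka3. The windows of Rps6ka2 and Egf are shown because the mean levels of these genes in KO were 37.7% to 43.4% of control in both muscles, so that their starts can be set side by side. Each line gives the 250 bases upstream of the annotated start on the gene's strand, 5′ to 3′, and capitals mark each CpG dinucleotide, the site of DNA methylation.
Rps6ka2, chr17:7169865-7170114, plus strand: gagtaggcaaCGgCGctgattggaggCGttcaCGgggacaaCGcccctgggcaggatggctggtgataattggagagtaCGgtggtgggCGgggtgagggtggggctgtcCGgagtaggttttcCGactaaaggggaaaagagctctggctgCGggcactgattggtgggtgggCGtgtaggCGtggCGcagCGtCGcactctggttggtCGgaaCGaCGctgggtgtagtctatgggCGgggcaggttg
Egf, chr3:129755323-129755572, minus strand: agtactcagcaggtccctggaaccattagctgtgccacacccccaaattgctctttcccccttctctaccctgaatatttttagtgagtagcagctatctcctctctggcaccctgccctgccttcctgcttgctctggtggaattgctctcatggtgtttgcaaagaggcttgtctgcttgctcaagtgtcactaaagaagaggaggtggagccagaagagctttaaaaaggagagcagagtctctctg
The Rps6ka2 window held 19 CpG dinucleotides and the Egf window held 0. Of 32851 mouse promoter windows of the same length, 80.3% had fewer CpG dinucleotides than that of Rps6ka2, and 92.1% had at least 1. The Rps6ka2 window also held 2 GC boxes (GGGCGG on either strand), a motif found in 32.7% of all windows. The Egf window held none of these and 1 E-box (CANNTG), the motif of the MyoD family of muscle factors and of many other factors, which was found in 66.2% of windows, and the Rps6ka2 window held no E-box. Neither window held the AP-1 motif TGANTCA or the ETS motif CCGGAAG on either strand, found in 6.75% and 6.91% of windows. RefSeq lists a further start of Egf inside the gene, whose window held 15 CpG dinucleotides, more than 72.7% of windows. It also held 1 E-box and 1 ETS motif. The windows shown for Rps6ka2 and Egf thus differed in CpG, GC box and E-box counts. Which start of Egf is used in these muscles was not examined.

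Values are TPM (transcripts per 1000000), made by the authors, which take account of gene length and of the total of each library. Changes are differences of log2(TPM + 1), which understate changes of low genes, and the error of a difference is the standard error (SE) from limma. TPM keeps no depth, so the precision that depth gives to each value is unknown. Nothing in the labels states that the samples within a group were separate mice, so a p-value here reflects the spread among these libraries, which may be technical. Phf2 itself averaged 9.87 ± 1.57 TPM (SD, n = 3) in control gastrocnemius and 7.12 ± 0.445 in KO, and 13.0 ± 2.64 and 7.99 ± 1.14 in soleus, with every KO library below every Ctrl library. By limma its adjusted p was 0.0601 in gastrocnemius and 0.326 in soleus. The labels do not name the floxed exons, so the TPM of the whole gene may not show the deletion. The slow myosin Myh7 and the fast myosin Myh4 matched the labelled muscles: Myh7 was at least 1795 TPM in every soleus library and at most 140 in every gastrocnemius library, while Myh4 was at most 272 in soleus and at least 9590 in gastrocnemius.

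Some features of the libraries moved with genotype. In gastrocnemius, genes above 0 numbered 18291 to 18699 in Ctrl and 19676 to 20175 in KO, the mitochondrially encoded share was 22.0% to 24.1% in Ctrl and 18.1% to 20.7% in KO, and the predicted gene Gm12338 was listed at 0 in every Ctrl library and at 99.4 to 194 TPM in every KO library. In soleus, Gm12338 was listed at 0 for Ctrl 2 and for KO libraries 1 and 3, and the mitochondrial share of KO 3 was 39.0% against 24.5% to 29.6% in the other soleus libraries. The 7 fibroblast markers summed to 771 to 1412 TPM in control gastrocnemius and to 1159 to 2536 in KO, with 1 of 7 higher by limma, and 1 of 6 smooth muscle markers was higher there. The 12 fibre markers summed to 127372 to 131282 TPM in control and 129471 to 137737 in KO gastrocnemius, and to 86930 to 96132 and 61024 to 93855 in soleus, with 1 of 12 higher and 1 lower by limma in KO gastrocnemius. No marker of the 10 cell type lists was at 0 in any library. The part of these features in the differences below was not tested, and in whole muscle, fewer cells of a type and less RNA per cell cannot be told apart.

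Between KO and Ctrl, Rps6ka2 and Egf were lower and Dusp26 was higher in both muscles, with no overlap between the libraries of the groups. In gastrocnemius 5 of the 9 genes passed an adjusted p of 0.05 (Rps6ka2, Rps6ka3, Map2k1, Dusp26 and Egf), where 14.3% of all 11911 genes tested did. In soleus 1 of 9 did (Rps6ka2, lower), against 0.0741% of 12148 genes, 0.0165% higher and 0.0576% lower. Groups did not overlap for 2 genes that were higher and 3 that were lower in gastrocnemius, against 22.2% and 15.5% of all genes (37.7% together), and for 1 higher and 3 lower in soleus, against 8.9% and 7.94% (16.8% together). Because the genes were picked on this contrast, nothing is read from these counts. The remaining 4 genes in gastrocnemius and 5 in soleus had overlapping groups.

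**Figure D1:**
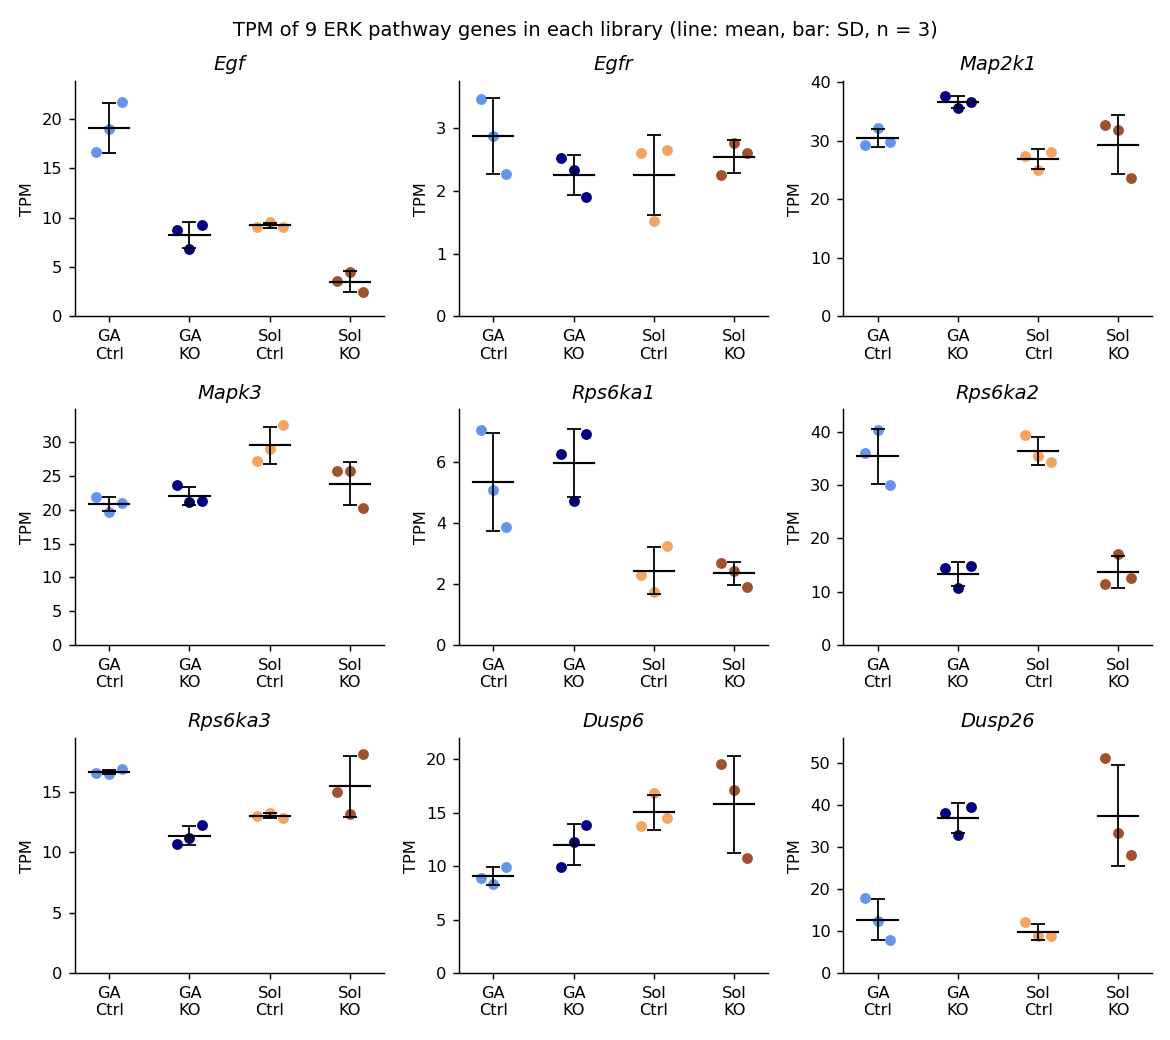
Each point is the TPM of a gene in 1 library, in gastrocnemius (GA, blue) and soleus (Sol, orange to brown) of Ctrl (lighter) and KO (darker) mice, with the mean and SD of 3 libraries; every axis starts at 0. Rps6ka2 and Egf lie lower and Dusp26 higher in KO libraries of both muscles, while the points of Egfr, Rps6ka1 and Dusp6 overlap between genotypes.

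Egf encodes a membrane-bound precursor from which the mature growth factor is released. In gastrocnemius it measured 16.6, 18.9 and 21.7 TPM in Ctrl 1 to 3 and 8.75, 6.81 and 9.30 TPM in KO 1 to 3. The soleus libraries measured 9.09, 9.52 and 9.05 TPM in Ctrl and 3.60, 4.52 and 2.47 TPM in KO. Every KO library was thus below every Ctrl library of its muscle, and the control soleus libraries lay at the level of the KO gastrocnemius libraries. Mean Egf in KO was 43.4% of control in gastrocnemius, a difference of -1.12 (SE 0.136), and 38.3% in soleus, a difference of -1.20 (SE 0.173). Leaving out any library kept these between -1.21 and -0.996 in gastrocnemius and between -1.36 and -1.02 in soleus. Among the soleus libraries with Gm12338 above 0 (2 Ctrl, 1 KO) the difference was -0.87, and among those with it at 0 (1 Ctrl, 2 KO) it was -1.40. Antisense genes overlap Egf and Egfr in the annotation, and antisense or smaller genes overlap Rps6ka1 and Map2k1; the strand used in counting is not stated, so the reads of such pairs may not have been told apart.

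Of the ligands that bind ErbB receptors of the EGF group (Egf, Tgfa, Hbegf, Areg, Ereg, Btc and Epgn), Egf made up 65.0% ± 2.56 (SD, n = 3) of the summed TPM in control gastrocnemius and 37.4% ± 3.41 in KO. In soleus its share was 46.0% ± 6.54 and 20.0% ± 4.44. Most of the rest was Hbegf, the heparin-binding ligand, with 32.3% ± 2.55 and 58.9% ± 4.76 in gastrocnemius and 49.0% ± 7.75 and 74.6% ± 7.30 in soleus. Egf was chosen because it differed between KO and Ctrl, so the shift of these shares between genotypes is no separate result. Hbegf itself was not called by limma in either muscle: it averaged 9.41 ± 0.170 TPM in Ctrl and 13.2 ± 3.38 in KO gastrocnemius (adjusted p = 0.109), and 10.1 ± 2.85 and 14.2 ± 6.48 in soleus (adjusted p = 0.766). The sum over the 7 ligands was 29.3 ± 2.78 TPM in Ctrl and 22.3 ± 4.28 in KO gastrocnemius, and 20.3 ± 2.82 and 18.5 ± 7.28 in soleus. The gastrocnemius groups overlapped, at 26.6 to 32.1 TPM in Ctrl and 18.6 to 27.0 in KO. In soleus they overlapped too, at 17.1, 21.6 and 22.3 TPM in Ctrl and 23.3, 22.1 and 10.2 in KO. The lowest soleus sum was that of KO 3, the library with the highest mitochondrial share.

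Egfr, the receptor of EGF, had the lowest mean of the 9 genes in control muscles. It measured 3.47, 2.88 and 2.26 TPM in control and 2.52, 2.33 and 1.90 in KO gastrocnemius. The soleus values were 2.60, 1.52 and 2.64 TPM in Ctrl and 2.25, 2.77 and 2.60 in KO. The genotypes overlapped in both muscles, with differences of -0.24 (SE 0.142) and 0.14 (SE 0.172), and the soleus difference was -0.03 without Ctrl 2. Egfr made up 50.5% ± 5.52 of the TPM of the 4 ErbB receptor genes in control gastrocnemius and 30.1% ± 5.85 in control soleus.

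Map2k1, the gene of MEK1, measured 29.2, 32.2 and 29.8 TPM in control and 37.6, 35.6 and 36.6 in KO gastrocnemius, with all 3 KO libraries above Ctrl and a difference of 0.26 (SE 0.0664). In soleus it measured 27.4, 24.9 and 28.1 TPM in Ctrl and 32.6, 31.8 and 23.6 in KO. There KO 3, the library with the highest mitochondrial share, lay below all Ctrl libraries, and KO 1 and 2 lay above them; the difference was 0.11 with KO 3 and 0.26 without it. Map2k2 was the more abundant MEK gene, at 112 ± 9.13 TPM in control gastrocnemius and 80.4 ± 7.27 in control soleus.

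Mapk3, the gene of ERK1, measured 21.9, 19.7 and 21.1 TPM in control and 23.7, 21.2 and 21.3 in KO gastrocnemius, where the groups overlapped. In soleus it measured 27.2, 29.0 and 32.6 TPM in Ctrl and 25.7, 25.7 and 20.2 in KO, so every KO library was below Ctrl. The soleus difference was -0.30 (SE 0.138), and -0.19 without KO 3.

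Rps6ka2 was the most abundant of the 9 genes by mean TPM in control muscles, and its gene spans chromosome 17 from 7170115 to 7303315 on the plus strand (GRCm38). It measured 36.0, 40.3 and 30.0 TPM in control and 14.5, 10.8 and 14.9 in KO gastrocnemius. Soleus libraries had 39.3, 35.5 and 34.4 TPM in Ctrl and 11.5, 17.1 and 12.6 in KO. The lowest Ctrl library of each muscle was well above the highest KO library. KO means were 37.8% of control in gastrocnemius and 37.7% in soleus, with differences of -1.34 (SE 0.150) and -1.36 (SE 0.157), and the gap between these differences was -0.02 (SE 0.229). Leaving out any library gave -1.46 to -1.20 in gastrocnemius and -1.52 to -1.25 in soleus. Within soleus libraries with Gm12338 above 0 it was -1.07, and within those at 0 it was -1.49.

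Rps6ka3, the RSK gene mutated in Coffin-Lowry syndrome in humans, did not take the same direction in the muscles. It measured 16.6, 16.5 and 16.9 TPM in control and 10.7, 11.2 and 12.2 in KO gastrocnemius. In soleus it measured 13.0, 13.2 and 12.8 TPM in Ctrl and 15.0, 13.2 and 18.2 in KO. KO libraries were thus all lower in gastrocnemius, while in soleus KO 1 and KO 3 were above Ctrl and KO 2 was level with the highest Ctrl library. The differences were -0.51 (SE 0.0735) and 0.22 (SE 0.133), and 0.10 in soleus without KO 3. Correction for GC content and length brought them to -0.34 and 0.07. The gap between the muscles was 0.73 (SE 0.147), given as a description.

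Rps6ka1 was low, at 7.04, 5.09 and 3.87 TPM in control and 6.26, 4.73 and 6.89 in KO gastrocnemius. In soleus it measured 2.30, 1.74 and 3.25 TPM in Ctrl and 2.67, 2.44 and 1.91 in KO. The genotypes overlapped in both muscles. Rps6ka6, the remaining RSK gene, averaged at most 0.357 TPM in any group.

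Summed over the 4 RSK genes, gastrocnemius libraries held 50.9 to 62.3 TPM in Ctrl and 26.8 to 34.1 in KO, and soleus libraries 50.8 to 55.0 and 29.6 to 32.9. The genotypes did not overlap in either muscle. The sum includes Rps6ka2, which was chosen because it differed between KO and Ctrl, so the lower sum is no separate result. Rps6ka1 overlapped between genotypes in both muscles. Mean Rps6ka3 in KO was 68.4% of control in gastrocnemius and 119% in soleus. Rps6ka2 supplied 61.3% ± 3.04 (SD, n = 3) of the RSK transcripts in control and 43.3% ± 2.90 in KO gastrocnemius, and 69.7% ± 1.89 and 43.0% ± 7.61 in soleus. The share of Rps6ka3 was 29.1% ± 3.53 in Ctrl and 37.2% ± 4.11 in KO gastrocnemius, where its own level was lower. In soleus that share was 25.0% ± 1.16 in Ctrl and 48.7% ± 7.82 in KO, so Rps6ka3 had the largest mean share in KO soleus. In soleus KO 2, however, Rps6ka2 held the larger share, 51.8% against 40.1% for Rps6ka3.

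**Figure D2:**
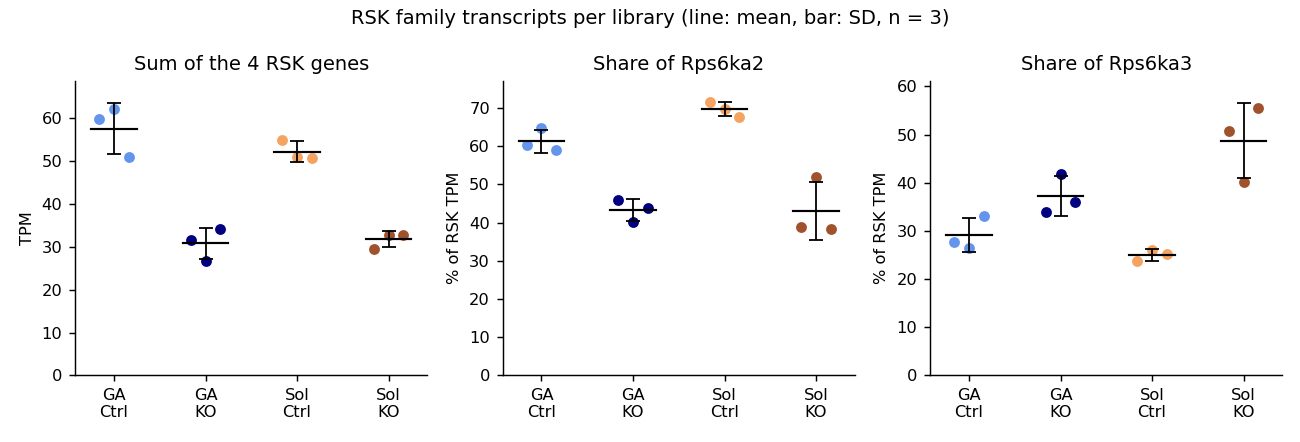
The left panel plots the summed TPM of Rps6ka1, Rps6ka2, Rps6ka3 and Rps6ka6 in each library of gastrocnemius (GA) and soleus (Sol), and the other panels plot the percent of that sum from Rps6ka2 and from Rps6ka3, with means and SD of 3 libraries. The sum lies between 50.8 and 62.3 TPM in Ctrl and between 26.8 and 34.1 in KO libraries.

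Dusp6, the ERK phosphatase, measured 8.90, 8.30 and 9.97 TPM in control and 9.96, 12.3 and 13.8 in KO gastrocnemius. In soleus it measured 13.7, 16.9 and 14.5 TPM in Ctrl and 19.5, 17.1 and 10.7 in KO. In gastrocnemius KO 1 was level with Ctrl 3 and the difference was 0.37 (SE 0.126), and in soleus KO 3 was the lowest library and the other KO libraries were the highest. The difference in soleus was 0.03 with KO 3 and 0.27 without it.

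Dusp26, on chromosome 8, was the gene with the largest difference of the 9. It measured 17.9, 12.5 and 7.98 TPM in control and 38.1, 32.9 and 39.7 in KO gastrocnemius. The soleus level was 12.2, 8.83 and 8.86 TPM in Ctrl and 51.2, 33.4 and 28.1 in KO. Every KO library was above every Ctrl library of both muscles, and KO 1 of soleus was the highest of the 12. Mean TPM in KO was 2.88-fold that of control in gastrocnemius and 3.77-fold in soleus, with differences of 1.52 (SE 0.247) and 1.79 (SE 0.231). Leaving out any library gave 1.24 to 1.78 and 1.54 to 1.97. Within soleus libraries with Gm12338 above 0 it was 1.60, and within those at 0 it was 1.99.

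**Figure D3:**
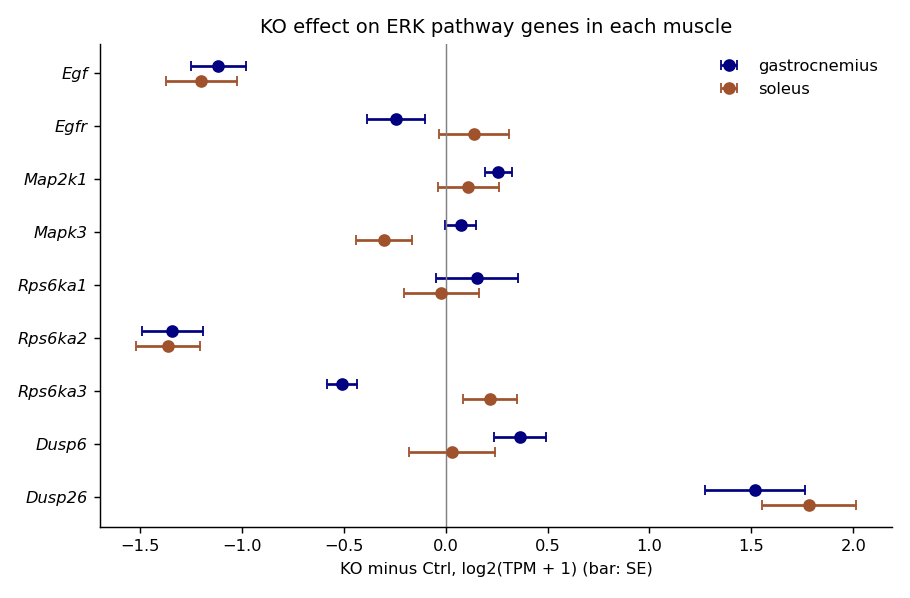
Each point is the KO minus Ctrl difference of log2(TPM + 1) of a gene in gastrocnemius (blue) or soleus (brown), with its SE from limma. Rps6ka2 and Egf lie between -1.36 and -1.12, Dusp26 lies at 1.52 and 1.79, and Rps6ka3 is at -0.51 in gastrocnemius and 0.22 in soleus.

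The order of the 9 genes by TPM differed between the genotypes. The genes were picked on that contrast, so the order is given as a description. In control gastrocnemius Rps6ka2 (35.4 TPM) and Map2k1 (30.4) led with overlapping ranges, followed by Mapk3, Egf, Rps6ka3, Dusp26 and Dusp6, whose neighbours in that order overlapped, and then Rps6ka1 and Egfr. In KO gastrocnemius Dusp26 (36.9 TPM) and Map2k1 (36.6) led with overlapping ranges, Mapk3 came next, and Rps6ka2, Dusp6 and Rps6ka3 followed between 11.4 and 13.4 TPM. In control soleus the order began with Rps6ka2 (36.4 TPM), which overlapped no other gene, then Mapk3 and Map2k1, which overlapped, and Egf (9.22) overlapped Dusp26 (9.95). In KO soleus Dusp26 (37.6 TPM), Map2k1 (29.3) and Mapk3 (23.9) overlapped in turn, and so did Dusp6, Rps6ka3 and Rps6ka2 between 13.7 and 15.8 TPM.

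How the 9 genes differ between the muscles was not used to choose them and was tested with limma, in Ctrl and, in libraries of other samples, in KO. The gastrocnemius and soleus values come from separate tables whose columns were each scaled to the same total, and the labels do not say whether the muscles came from the same mice. In control mice 2 of the 9 were higher in soleus (Mapk3 and Dusp6) and 3 were lower (Egf, Rps6ka1 and Rps6ka3), where 31.4% and 10.2% of the 12048 genes tested were, 41.6% together. In KO mice 2 were called, Egf and Rps6ka1, both lower in soleus, where 21.9% of 12135 genes were higher and 7.82% lower, 29.7% together. The median of all genes was 0.19 higher in soleus among Ctrl and 0.13 among KO libraries. With median-ratio scaling, which removes this shift, the calls over all genes were 2332 higher and 2277 lower in Ctrl in place of 3782 and 1232, and 1539 and 1592 in KO in place of 2658 and 949.

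Egf had the smallest adjusted p of the 9 among Ctrl mice, and Rps6ka1 among KO mice. Egf was 2.07-fold higher in gastrocnemius among Ctrl mice, a soleus minus gastrocnemius difference of -0.97 (SE 0.110, adjusted p = 0.000472), and 2.35-fold higher among KO mice, a difference of -1.05 (SE 0.191, adjusted p = 0.00738). Relative to the median of all genes these were -1.15 and -1.18. The call held in all 16 alternatives in each genotype, with adjusted p from 0.000256 to 0.00323 in Ctrl and 0.00260 to 0.0351 in KO. All 3 gastrocnemius libraries were above all 3 soleus libraries in each genotype.

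Rps6ka1 was 2.19-fold higher in gastrocnemius among Ctrl mice (difference -0.88, SE 0.222, adjusted p = 0.0162) and 2.55-fold higher among KO mice (difference -1.05, SE 0.153, adjusted p = 0.00316). The Ctrl call was lost without Sol Ctrl 1 (adjusted p = 0.0519) and with no filter on low genes (adjusted p = 0.0550). The KO call held in all 15 alternatives, with adjusted p up to 0.0175. Rps6ka3 was lower in control soleus (difference -0.33, SE 0.0771, adjusted p = 0.0117), and called in all 16 alternatives with adjusted p up to 0.0451. Among KO mice its difference was 0.40 (SE 0.131, adjusted p = 0.0572), with all 3 soleus libraries above gastrocnemius, and it was called without Sol KO 2 (adjusted p = 0.0373). The KO difference was 0.26 with median-ratio scaling (adjusted p = 0.265), 0.28 with quantile normalization (adjusted p = 0.257) and 0.07 with correction for GC content and length (adjusted p = 0.588).

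Dusp6 was 1.66-fold higher in control soleus (difference 0.67, SE 0.111, adjusted p = 0.00263) and 0.49 higher relative to the median of all genes, and called in all 16 alternatives. Among KO mice its difference was 0.34 (SE 0.222, adjusted p = 0.291), and 0.58 without Sol KO 3 (adjusted p = 0.0265). Mapk3 was 1.42-fold higher in control soleus (difference 0.48, SE 0.0947, adjusted p = 0.00570), or 0.29 relative to the median, and the call was lost with quantile normalization (adjusted p = 0.0509) and with correction for GC content and length (adjusted p = 0.169). Among KO mice the Mapk3 difference was 0.10 (SE 0.125, adjusted p = 0.571). After rescaling without mitochondrially encoded genes, Rps6ka3 (adjusted p = 0.0225), Mapk3 (0.0219) and Dusp6 (0.0367) were called higher in soleus among KO mice. That setting moved the median of all genes from 0.13 to 0.33 and the calls over all genes to 5238 higher and 728 lower.

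The other genes were not called on the TPM values as deposited. Map2k1 was lower in every control soleus library (difference -0.18, SE 0.0858, adjusted p = 0.139), and became a call with median-ratio scaling at -0.38 (adjusted p = 0.00534). In KO its difference was -0.32 (SE 0.140, adjusted p = 0.126), and -0.47 with that scaling (adjusted p = 0.0159). Map2k1 was also called lower with quantile normalization (adjusted p = 0.00415 in Ctrl and 0.0142 in KO). The same held with correction for GC content and length (0.00387 and 0.0145). It was not called after rescaling without mitochondrially encoded genes (0.355 and 0.390). Rps6ka2 differed between control muscles by 0.05 (SE 0.120, adjusted p = 0.778), with a sign that turned with the scaling, from -0.19 to 0.14 over the alternatives. The differences of Dusp26 and Egfr in Ctrl were -0.28 (SE 0.260, adjusted p = 0.412) and -0.26 (SE 0.187, adjusted p = 0.298), and neither was called among KO mice.

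**Figure D4:**
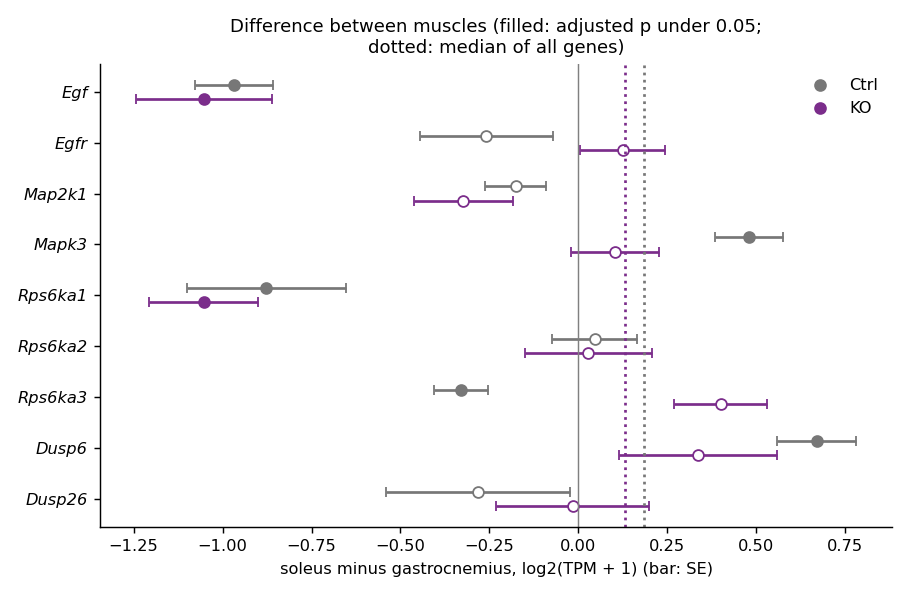
Each point is the soleus minus gastrocnemius difference of log2(TPM + 1) with its SE in Ctrl (grey) or KO (purple) mice; filled points had an adjusted p under 0.05 by limma, and dotted lines mark the median of all genes. Egf and Rps6ka1 lie between -1.05 and -0.88 in both genotypes, and Dusp6 and Mapk3 are called higher in control soleus.

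The other genes of the route were taken from 11 lists with 131 genes outside the 9. In gastrocnemius 109 were tested, and 10 were higher and 3 lower in KO by limma, together 11.9% against 14.3% of all genes (9.32% higher and 4.99% lower). Their median difference was 0.04, against 0.03 for all genes. The 13 calls became 7 without Ctrl 1 or Ctrl 2 and 6 without KO 2. The split of 10 and 3 became 8 and 7 with median-ratio scaling, 8 and 9 with quantile normalization, 8 and 6 without mitochondrially encoded genes, and 5 and 5 with correction for GC content and length. Over all genes the split of 1110 and 594 became 908 and 801, 811 and 959, 753 and 802, and 670 and 600 in the same settings.

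The atypical dual-specificity phosphatases, the group of Dusp26, had 13 further members tested in gastrocnemius, of which 2 rose, 1 fell and 10 did not pass. Dupd1, a phosphatase of striated muscle, rose from 51.2 ± 9.50 TPM (SD, n = 3) to 102.9 ± 5.68 (difference 1.01, SE 0.135, adjusted p = 0.00778). Dusp27, which lacks the catalytic cysteine of the family and is found in muscle, rose from 24.2 ± 2.05 to 43.0 ± 3.50 TPM (0.81, SE 0.0914, adjusted p = 0.00533). Dusp13, also of muscle and testis, fell from 106 ± 2.25 to 78.7 ± 1.66 TPM (-0.43, SE 0.0556, adjusted p = 0.00708). These calls held in every alternative. In soleus the values were 23.3 ± 6.37 TPM in Ctrl and 33.0 ± 9.52 in KO for Dupd1, 49.4 ± 8.99 and 57.4 ± 16.2 for Dusp27, and 68.8 ± 3.90 and 50.1 ± 10.1 for Dusp13, and none was called. The median difference of the 13 was -0.14 in gastrocnemius, against 0.03 for all genes. Of the 6 MAP kinase phosphatases tested beside Dusp6, the group that acts in the nucleus and cytoplasm on ERK, p38 and JNK, 0 were called in gastrocnemius, and 0 had an unadjusted p under 0.05. Dusp1 averaged 35.1 ± 9.77 TPM in Ctrl and 37.3 ± 5.15 in KO.

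Among 21 Ras proteins, adaptors and Ras regulators tested, 5 rose, 1 fell and 15 did not pass in gastrocnemius, with a median difference of 0.06. Rasgrp3, a Ras activator controlled by diacylglycerol, fell from 15.2 ± 0.652 to 8.68 ± 0.555 TPM (-0.74, SE 0.0773, adjusted p = 0.00444). Nras rose from 13.1 ± 0.284 to 20.4 ± 2.09 TPM (0.60, SE 0.0876, adjusted p = 0.00955). The adaptor Shc1 rose from 13.4 ± 0.653 to 18.3 ± 0.246 TPM (0.42, adjusted p = 0.0122) and Rras from 41.9 ± 1.45 to 55.0 ± 2.03 TPM (0.38, adjusted p = 0.0124). The calls of Rasgrp3 and Nras held in every alternative, while that of Rras was lost with correction for GC content and length and without Ctrl 1 or KO 2. In soleus Rasgrp3 measured 10.4, 10.6 and 10.5 TPM in Ctrl and 6.18, 7.03 and 7.32 in KO, which did not overlap, with a difference of -0.56 (SE 0.108, adjusted p = 0.198). The list was completed by Hras, at 94.0 ± 10.1 TPM in control and 135 ± 13.5 in KO gastrocnemius (0.51, adjusted p = 0.0221), and the adaptor Grb2, at 28.4 ± 1.46 and 35.6 ± 2.19 (0.31, adjusted p = 0.0354), both named after their values were seen. Both calls were lost with no filter, with correction for GC content and length, and without Ctrl 1, Ctrl 2, KO 1 or KO 2, and that of Grb2 also without KO 3 and with every scaling tried.

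In the list of Raf, MEK, ERK and scaffold genes 1 of 11 rose, Pebp1, a Raf inhibitor, from 209 ± 9.96 to 247 ± 7.35 TPM (0.24, SE 0.0614, adjusted p = 0.0453), a call lost with every scaling tried, with no filter, with no trend, with correction for GC content and length, and when any library other than Ctrl 3 was left out. Of 10 genes for the upstream kinase and substrates of RSK, 1 rose: Eef2k, a kinase that slows translation elongation and is inhibited by RSK, from 26.4 ± 2.79 to 38.5 ± 3.04 TPM (0.53, SE 0.0964, adjusted p = 0.0161). That call was lost without Ctrl 1, Ctrl 2 or KO 2. Of 13 p38, JNK and ERK5 kinases, 1 rose and 1 fell. Mapkapk2, a kinase downstream of p38, rose from 86.1 ± 2.80 to 106 ± 1.76 TPM (0.29, adjusted p = 0.0191), a call lost with correction for GC content and length and when any library other than Ctrl 3 was left out. Map2k6, a kinase of p38, fell from 16.4 ± 1.70 to 10.5 ± 1.59 TPM (-0.60, SE 0.121, adjusted p = 0.0214), a call lost with no filter and without Ctrl 2, KO 2 or KO 3.

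The remaining lists had 0 calls in gastrocnemius. They were 1 EGF ligand, 6 ErbB receptors and inhibitors, 4 RSK, MSK and MNK kinases, 5 Sprouty and Spred inhibitors and 19 ERK-responsive transcription factors and early genes, of which 1, 1, 1, 0 and 5 had an unadjusted p under 0.05 by limma, where 32.2% of all genes did. The median difference of the early genes was 0.24 against 0.03 for all genes. Mknk2, a kinase of the translation factor eIF4E, averaged 71.4 ± 4.94 TPM in Ctrl and 69.6 ± 3.81 in KO, and the feedback inhibitor Spry2 averaged 6.18 ± 1.16 and 8.004 ± 1.19 (adjusted p = 0.168). Srf, a partner of the ERK-phosphorylated ternary complex factors, had a difference of 0.28 (adjusted p = 0.1001). Elk4, of the same list, went the other way, from 46.1 ± 4.90 TPM in Ctrl to 37.6 ± 0.516 in KO (-0.28, adjusted p = 0.0702). Its groups did not overlap, and it was called with quantile normalization and after rescaling without mitochondrially encoded genes.

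In soleus 114 of the 131 genes were tested and 0 were called by limma. An unadjusted p under 0.05 was reached by 14 of them, 12.3%, against 9.07% of all genes. Their median difference was -0.01 against -0.02. Spry2 averaged 8.32 ± 1.91 TPM in Ctrl and 14.2 ± 2.26 in KO (adjusted p = 0.274), with every KO library above Ctrl. Dusp1 averaged 85.1 ± 10.2 and 62.7 ± 18.0 TPM (adjusted p = 0.574), and Mknk2 182 ± 6.30 and 161 ± 52.2 TPM (adjusted p = 0.765). The difference of the KO effect between the muscles was called for 0 of 111 genes of the lists, and for 0.273% of all 12091 genes tested. An unadjusted p under 0.05 was reached by 23 of the 111, 20.7%, the same share as over all genes (20.7%).

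**Figure D5:**
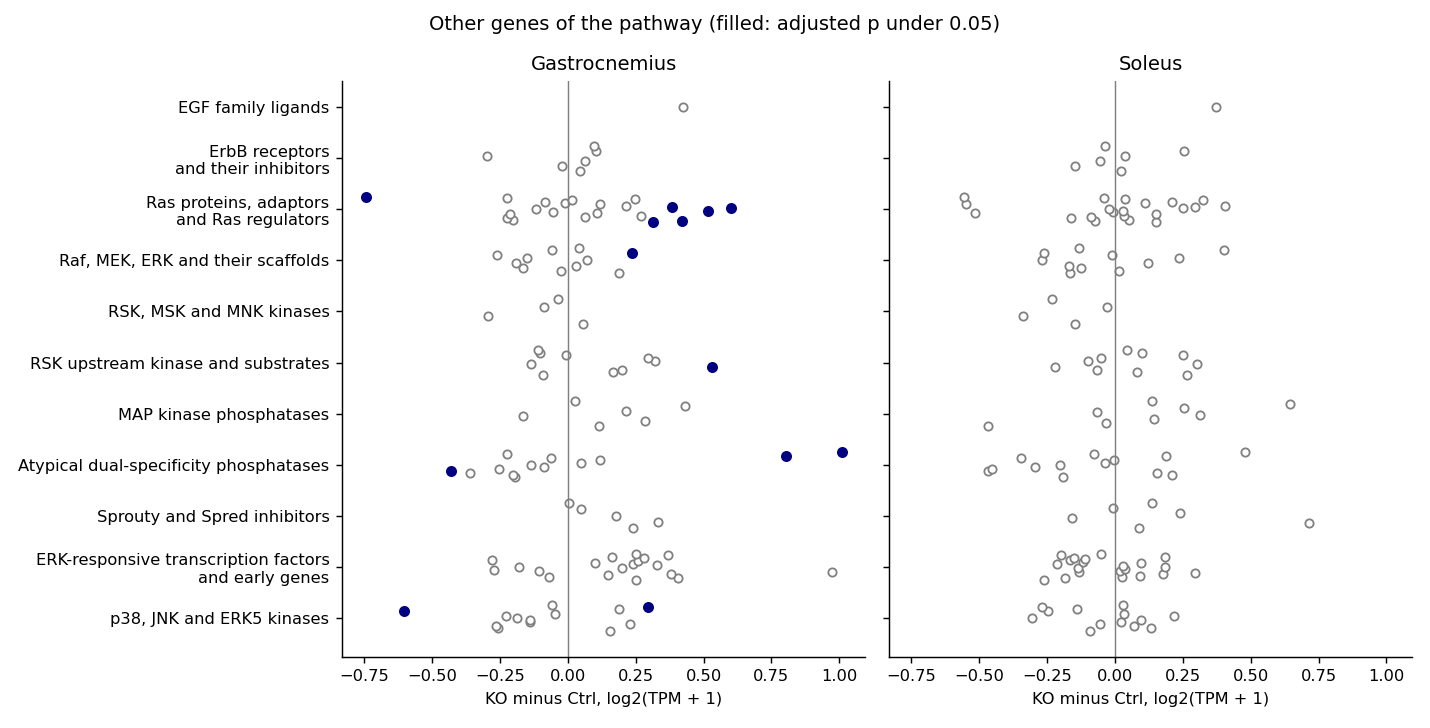
Each point is the KO minus Ctrl difference of log2(TPM + 1) of a gene outside the 9, by list, in gastrocnemius (left) and soleus (right); filled points had an adjusted p under 0.05 by limma. There are 13 filled points in gastrocnemius, among them Dupd1 at 1.01, Dusp27 at 0.81 and Rasgrp3 at -0.74, and 0 in soleus.

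Between control muscles 40 of 109 list genes were higher and 16 lower in soleus, 51.4% against 41.6% of all genes, or 27 and 22 with median-ratio scaling. Among KO mice it was 34 and 11 of 112, 40.2% against 29.7% of all genes, or 22 and 16 with that scaling. Over all genes that scaling gave 2332 higher and 2277 lower in Ctrl, and 1539 and 1592 in KO. The 45 calls of list genes in KO became 29, 27 and 29 without GA KO 1, 2 and 3. Mknk2 averaged 71.4 ± 4.94 TPM in gastrocnemius and 182 ± 6.30 in soleus (1.34, SE 0.0807, adjusted p = 2.59e-05), and its relative Mknk1 averaged 27.2 ± 0.276 and 15.7 ± 2.78 TPM (-0.77, adjusted p = 0.00268). The early gene Fos was 2.07 higher in soleus on the log2 scale (adjusted p = 0.000102), and of the 19 early genes tested 10 were higher and 0 lower, where 31.4% of all genes were higher. Under the other scalings and the correction for GC content and length 7 to 11 early genes were higher and 0 lower, while the genes called higher over all genes numbered 2268 to 4554 in place of 3782. Of 6 MAP kinase phosphatases 4 were higher and 0 lower, or 2 and 0 with median-ratio scaling and 3 and 1 with correction for GC content and length, among them Dusp1, at 35.1 ± 9.77 TPM in gastrocnemius and 85.1 ± 10.2 in soleus (1.28, adjusted p = 0.0018). Lrig1, a negative regulator of ErbB receptors, averaged 20.4 ± 1.40 TPM in gastrocnemius and 9.26 ± 0.731 in soleus (-1.06, adjusted p = 0.000169), and the receptor gene Erbb3 averaged 1.25 ± 0.137 and 3.09 ± 0.286 TPM (0.86, adjusted p = 0.00101). Hras averaged 94.0 ± 10.1 TPM in gastrocnemius and 51.7 ± 5.12 in soleus (-0.85, adjusted p = 0.000817), and Rras 41.9 ± 1.45 and 74.8 ± 2.64 (0.82, adjusted p = 0.000158). The calls of the genes named here held in every alternative.

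The genes whose pattern was most like that of Rps6ka2, Dusp26 and Egf were ranked among 11041 genes by the root mean square difference of log2(TPM + 1) over the 12 libraries, after each muscle's mean was subtracted. Genes averaging under 1 TPM in either muscle, predicted genes with a Gm number, Riken clones, pseudogenes and genes without a symbol were passed over. The ranking is a description of the same libraries and has no test. The difference between KO and Ctrl, on which Rps6ka2, Dusp26 and Egf were chosen, stays in these distances. The likeness of Rps6ka2 and Egf to each other is thus no separate result. For Rps6ka2 they were Asb14 (0.13), an ankyrin repeat adaptor of ubiquitin ligases, Fgf13 (0.16), an intracellular protein that binds sodium channels, and Egf (0.21), against 0.70 for the distance of Rps6ka2 from its own muscle means. For Egf they were Asb14 (0.18), Fgf13 (0.18) and Rps6ka2 (0.21), against 0.61. Asb14 measured 100.6, 92.8 and 90.0 TPM in control and 41.7, 30.2 and 41.1 in KO gastrocnemius, and 53.2, 61.4 and 62.6 and 21.3, 31.1 and 22.9 in soleus. As for Rps6ka2, its KO 2 was the lowest library in gastrocnemius and the highest KO library in soleus. For Dusp26 the nearest genes were farther away: Cdkn1a (0.41), an inhibitor of cyclin-dependent kinases, Catsperg1 (0.42), a subunit of a sperm ion channel, and Cda (0.42), a cytidine deaminase, against 0.88 for Dusp26 itself. Catsperg1 and Cda were low in control gastrocnemius, at means of 0.360 and 0.873 TPM.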

How the data were processed

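The authors deposited TPM values for the 12 libraries as 1 table per muscle. Per the labels' protocols, total RNA from flash-frozen muscle was made into directional libraries. Per the submitters' processing notes the build was mm10. The aligner, quantifier and counting strand are not given in the sources used. Each column sums to 1000000 and holds the same 34866 gene IDs, of which 34582 were matched to GENCODE M21 symbols.

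Genes averaging 1 TPM or more over the libraries compared were fitted with limma 3.58.1 (R 4.3.3) on log2(TPM + 1), with a mean-variance trend and two-sided tests, Benjamini-Hochberg adjustment across all genes tested, and a call at an adjusted p under 0.05. KO was compared with Ctrl in each muscle, the muscles in each genotype, and the KO effects between muscles. The fit was tested on simulated data. The genes, lists and tests were chosen with earlier results of these data known. List genes are named if called in gastrocnemius or soleus, up to 4 of smallest p per list, otherwise the 2 of highest TPM; between control muscles, up to 2 per list and direction. Not all genes so named are printed. Hras and Grb2 in gastrocnemius were named after their values were seen.

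The alternatives tried were a pseudocount of 0.1 or 0.5, a filter at 5 TPM or none, quantile normalization, median-ratio scaling, rescaling with mitochondrially encoded genes removed, a block for the replicate number, no trend, a lowess correction for GC content and length, and leaving out each library in turn. Chosen after seeing the data was a split of soleus by Gm12338. Same-numbered libraries did not deviate together, with correlations of -0.381 to 0.204, so the numbers were not used to pair them. Figures were drawn with matplotlib 3.10.9. No library or column was left out.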

Additional observations from a re-analysis of the deposited data

Results flagged for a closer look

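The mean KO difference of Rps6ka3 had opposite signs in the muscles. Every KO library lay below the control mean in gastrocnemius and above it in soleus. The soleus groups overlapped, and the soleus effect of 0.22 (SE 0.133) became 0.07 with correction for GC content and length. Among soleus libraries with Gm12338 above 0 it was 0.03, and among those at 0 it was 0.30. The soleus effect minus the gastrocnemius effect was 0.73 on the log2 scale (SE 0.147), and the difference was not tested, because the gene was chosen on the contrast between KO and Ctrl.

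Mapk3 went the other way, with every KO library above the control mean in gastrocnemius and below it in soleus. The gap was -0.38 (SE 0.154), and this difference was not tested either. The gastrocnemius groups overlapped, and the gastrocnemius effect of 0.07 changed to -0.10 with correction for GC content and length.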

How the results depend on the processing

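The KO effects of Rps6ka2, Dusp26 and Egf kept their sign in every alternative in both muscles. They ranged from -1.46 to -1.20, 1.24 to 1.78 and -1.21 to -0.996 in gastrocnemius and from -1.52 to -1.25, 1.54 to 1.99 and -1.40 to -1.02 in soleus, beside the values within soleus libraries with Gm12338 above 0 (-1.07 for Rps6ka2 and -0.87 for Egf). Of 312 alternative KO values of the 9 genes, 302 moved by less than the spread between replicates and 10 by more. Of 284 values between muscles, 269 kept their side of the threshold, 4 lost it and 11 passed it newly. No called value changed sign. The cause of these shifts was not tested.

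Counts over all genes moved more. In gastrocnemius 1704 genes were called, 1113 with no filter, 722 with the replicate number as a block, and 541 (without KO 2) to 1588 when a library was left out, with a move of over 1.5 times for every library except Ctrl 3. Of the list genes 13 were called there, 7 under the block and 6 to 15 without a library, the lowest without KO 2. In soleus 9 genes were called, 5 with a filter at 5 TPM, 15 without mitochondrially encoded genes, and 0 with no filter, under the block or with Gm12338 as a term, and 0 to 10 without a library, close to the full count without KO 2 only; list genes were 0 throughout. Between KO muscles 3607 genes were called, 5966 without mitochondrially encoded genes, and 2013 to 4399 without a library, with moves of over 1.5 times without GA KO 1, 2 or 3 (2160, 2188 and 2013), and of list genes 45, and 27 to 56. For the difference of KO effects 33 genes were called, 14 with a pseudocount of 0.1, 21 with median-ratio scaling and with quantile normalization, 17 without mitochondrially encoded genes, 16 with correction for GC content and length, 3 under the block, and 1 to 306 without a library, the highest without Sol KO 2, with moves of over 1.5 times for every library except Sol KO 3. Under the block the calls of Grb2, Hras, Map2k6, Mapkapk2, Pebp1, Rras and Shc1 were lost in gastrocnemius and Egr1 was called. The labels do not say whether same-numbered libraries of the muscles share a mouse, and their deviations correlated between -0.147 and 0.204, so the numbers were not taken as pairs. TPM keeps no depth, and the precision of low genes such as Egfr and Rps6ka1 is unknown.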
